A study of Homo sapiens with 4 samples.

Results

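The 38 genes described here serve glycolysis or the response to low oxygen, and all 38 were found among the 25548 gene symbols of the expression table, each on a single row. They form a fixed list of gene names: 16 enzymes of the path from glucose to lactate, 7 transporters and regulators of that path, the 2 alpha subunits HIF1A and EPAS1 of the hypoxia-inducible factor (HIF), and 13 HIF targets outside glycolysis. Their levels come from FaDu, an established squamous carcinoma line of the hypopharynx, in RPMI-1640 medium with 10% serum. The treated culture received 5 µM 5-aza-2'-deoxycytidine (Aza), which traps DNA methyltransferases, on days 1 to 3, and the histone deacetylase inhibitor trichostatin A (TSA), at 100 nM, on day 3. The control received the vehicles, DMSO for Aza and ethanol for TSA, although its label names DMSO only. The oxygen level of the cultures is not given in the sources used here, and no culture is labelled as hypoxic.

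Glycolysis splits glucose to pyruvate and yields ATP without oxygen, and lactate dehydrogenase then turns pyruvate into lactate, which leaves the cell through monocarboxylate transporters. HIF is a pair of an alpha and a beta subunit. In the presence of oxygen the EGLN prolyl hydroxylases mark the alpha subunit for destruction through VHL, so that HIF activity is set mainly on the protein and less on its messenger RNA. When oxygen is short the stable pair binds a short core in DNA, ACGTG or GCGTG, and raises the transcription of glycolytic genes and of genes for blood vessel growth, pH control, mitophagy and collagen modification. The core holds a CpG, and methylation of that CpG is known to hinder the binding of HIF. Squamous carcinomas are known for high glycolysis and for hypoxic regions.

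Before the values, the promoters of 5 members are shown, picked with their values known, to put the core beside the results below. DDIT4 and BNIP3 are HIF targets that were lower in the treated library, BNIP3 by less than 2-fold as measured, and carry the core. EGLN3 was lower and P4HA2 higher without it, and PGK1 is an enzyme with the core that differed little. Not shown are ANKRD37 and SLC16A3, which were on the higher side and also carry the core, SLC16A3 at some of its start sites. Each run is the 250 bases before the first start site in RefSeq (GRCh38.p14), 5′ to 3′ on the strand of the gene, with capitals on every ACGTG or GCGTG of either strand.

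DDIT4 (chr10:72273674-72273923, plus strand): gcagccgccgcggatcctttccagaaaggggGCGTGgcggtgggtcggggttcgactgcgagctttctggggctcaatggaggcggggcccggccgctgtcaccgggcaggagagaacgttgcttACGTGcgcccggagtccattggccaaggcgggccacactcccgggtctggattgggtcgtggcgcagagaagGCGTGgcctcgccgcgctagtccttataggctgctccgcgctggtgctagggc
BNIP3 (chr10:131981924-131982173, minus strand): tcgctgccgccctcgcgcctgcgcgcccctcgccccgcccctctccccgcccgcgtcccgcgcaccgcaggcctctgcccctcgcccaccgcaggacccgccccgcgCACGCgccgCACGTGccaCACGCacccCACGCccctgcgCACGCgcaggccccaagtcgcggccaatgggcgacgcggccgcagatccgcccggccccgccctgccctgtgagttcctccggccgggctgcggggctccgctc
EGLN3 (chr14:33951075-33951324, minus strand): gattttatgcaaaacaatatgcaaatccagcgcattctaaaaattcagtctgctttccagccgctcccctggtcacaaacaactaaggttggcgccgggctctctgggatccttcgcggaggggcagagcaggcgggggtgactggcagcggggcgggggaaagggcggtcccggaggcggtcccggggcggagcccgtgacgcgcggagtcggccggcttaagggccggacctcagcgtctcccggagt
P4HA2 (chr5:132227092-132227341, minus strand): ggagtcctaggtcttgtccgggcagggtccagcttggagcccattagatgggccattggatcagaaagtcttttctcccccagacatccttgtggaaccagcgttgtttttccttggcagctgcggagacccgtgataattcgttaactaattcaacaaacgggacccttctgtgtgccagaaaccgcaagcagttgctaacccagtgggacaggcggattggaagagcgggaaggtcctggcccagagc
PGK1 (chrX:78103998-78104247, plus strand): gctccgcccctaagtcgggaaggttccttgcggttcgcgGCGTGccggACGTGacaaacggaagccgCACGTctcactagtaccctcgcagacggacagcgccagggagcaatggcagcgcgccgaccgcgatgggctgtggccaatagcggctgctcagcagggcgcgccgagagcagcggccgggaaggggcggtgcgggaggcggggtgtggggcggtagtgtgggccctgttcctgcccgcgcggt

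The DDIT4 window held 3 cores, BNIP3 5, PGK1 3, and EGLN3 and P4HA2 none. A core that reads CACGTG is the E-box of MYC and related factors as well and was counted as 1, as in BNIP3. Promoters were found for 33 of the 38 members, 60 start sites in all. The core stood in 19 of 36 start sites of the enzymes (52.8%) and in 8 of 10 of the HIF targets (80%), against 55.3% of 12922 start sites of measured genes. Counted by gene, 14 of 16 enzymes (87.5%) and 8 of 10 targets (80%) had at least 1 start site with the core, against 65.3% of measured genes. Without an entry were NDRG1, BNIP3L, VEGFA, SLC16A1 and SLC2A3. The enzymes have several start sites per gene more often, which raises their count by gene. The windows of both lists were alike in base composition. The median GC content was 67.8%, with 21 CpGs per window, for the enzymes and 68.4%, with 24 CpGs, for the targets. Windows of measured genes were lower, at 64.4% and 20 CpGs, and whether this bears on the shares with the core was not tested. Which start site these cells used was not measured, and no methylation was measured, so a match describes letters only.

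The series has 4 groups (FaDu and UMSCC47, each with vehicle or with Aza and TSA) and a single library for each, so no difference here has a replicate check and no p-value is given. Expression is in FPKM, fragments scaled to transcript length and to the mapped total, which allows levels of different genes to be compared. The FaDu columns sum to 491963 FPKM with DMSO and 516692 with treatment. The number of reads is not known. For 40.8% of 130 short RNA genes the 2 FaDu values stood in a ratio of whole numbers (up to 6, within 0.01%). This holds once 1 read is taken to be worth 0.9998 times as much in the treated column, the best value of a search near 1. A worth of exactly 1 gave 0%, and other values, not picked by such a search, gave a median of 0%. The UMSCC47 columns were not used for genes: GAPDH was listed there at 0.290 and 0.177 FPKM, and 10 and 6 of the 16 enzymes reached 5 FPKM, against 16 and 16 in FaDu. All 8 markers of squamous epithelium were at 15.2 FPKM or more in both FaDu libraries. The marker lists of leukocytes, endothelium, fibroblasts and red cells summed to between 0 and 1.79 FPKM each with DMSO and between 3.39 and 6.02 when treated. In each list 1 gene reached 1 FPKM (CD14, CDH5, COL1A1 and HBA1), and their part in the results was not tested.

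Changes below are the difference of log2(FPKM + 1), treated minus DMSO, a scale on which genes near 0 FPKM change less than their ratio. A gene that reached 1 FPKM in either library counted as measured, and was called higher or lower where the difference was at least 2-fold on this scale. Of the 38 members 37 did; CA12 did not. CA9 and PFKFB4 passed through 1 library only, and neither was called. Over all 13558 measured genes, 16.1% were called higher and 5.21% lower, with a median log2 change of 0.13. The change also followed the GC content of the transcript, at a Spearman rank correlation of 0.67 over the 7129 genes with 5 FPKM or more in each library, which are not independent of each other. The changes are therefore also given with that trend subtracted (GC correction). This moved the median of all genes to 0.01, and 7.53% and 4.34% of 12529 genes were then called higher and lower.

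The members split by role. None of the 16 glycolytic enzymes differed 2-fold in either direction, beside 16.1% of all measured genes called higher and 5.21% called lower. The lists also differ in level. The median with DMSO was 73.8 FPKM for the enzymes, 28.3 for the measured HIF targets and 7.45 for all measured genes. Whether level bears on these counts was not tested. Of the 12 measured HIF targets outside glycolysis 10 were below the DMSO level, as were 5964 of all 13558 measured genes. CA9, among the 10, was measured through the DMSO library only and so could only count as lower. At least 2-fold lower were 4 of the 12 (33.3%, beside 5.21% of all genes): NDRG1, DDIT4, EGLN3 and BNIP3L. Among transporters and regulators, SLC16A3 and SLC2A3 were called higher, 2 of 7 (28.6%, beside 16.1% of all genes). Both kept the call after GC correction, beside 7.53% of all genes. P4HA2 was the 1 HIF target called higher. Neither alpha subunit was called.

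**Figure D1:**
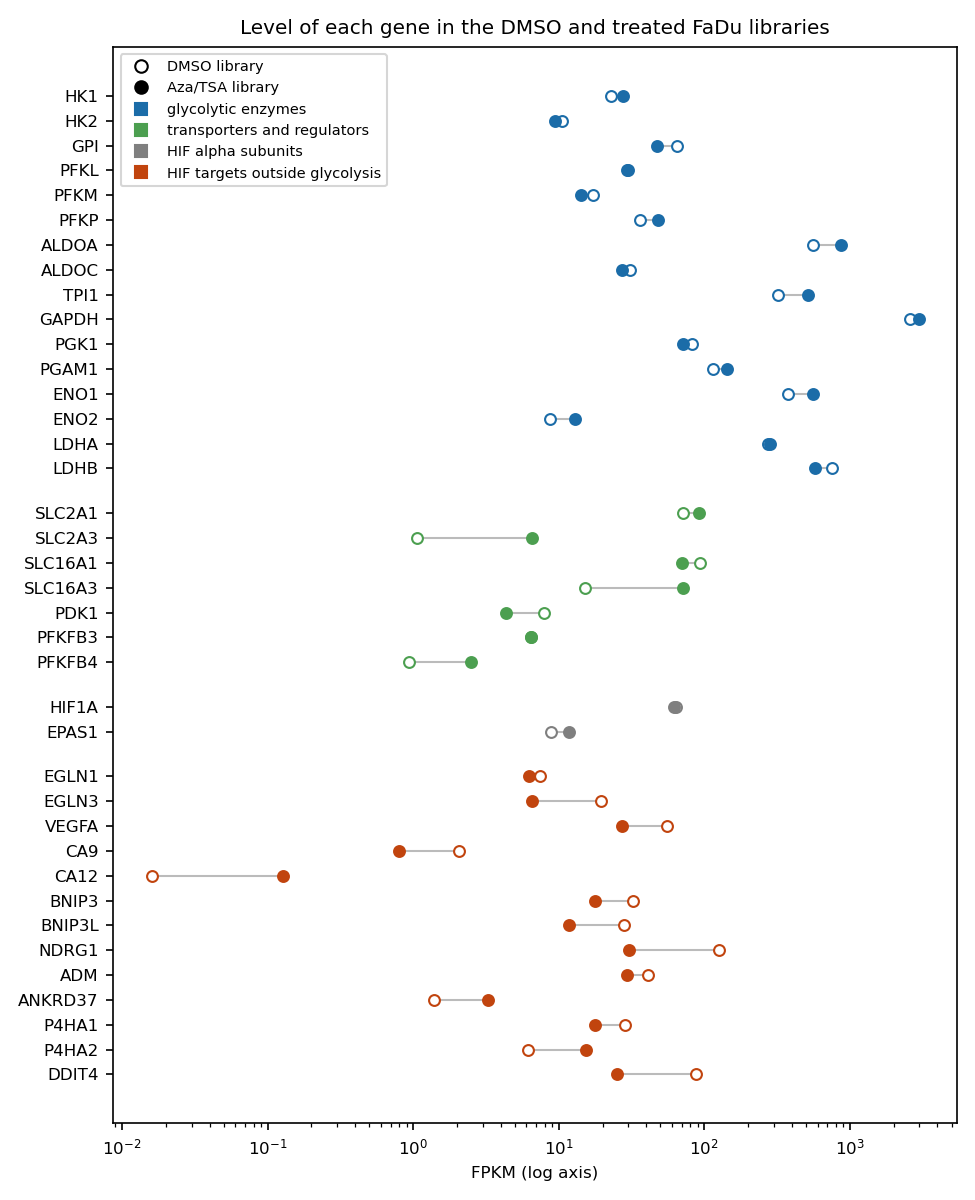
FPKM of each of the 38 members on a log axis in the DMSO library (open circles) and the Aza/TSA library (filled circles), 1 library each, coloured by role. The enzymes reach from 8.69 to 2971 FPKM with both circles close together, while NDRG1, DDIT4 and EGLN3 sit clearly lower when treated and SLC16A3 and SLC2A3 higher.

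The enzymes spanned a wide range of abundance. Of the 16, 8 stood within the first 1000 ranks of all genes with DMSO, while ENO2 stood at rank 6212. GAPDH, which oxidises glyceraldehyde 3-phosphate, was at 2590 FPKM with DMSO, rank 19 of all genes, and at 2971 when treated. All 16 enzymes together made up 1.08% of the summed FPKM with DMSO and 1.20% when treated. That sum was 1.17-fold higher when treated, or 1.19-fold without GAPDH, while the whole column was 1.05-fold higher.

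In the first, ATP-consuming steps, the changes were small and of both signs. HK1, the housekeeping hexokinase that traps glucose as its phosphate, was at 22.9 FPKM with DMSO and 27.7 when treated, and the inducible HK2 at 10.4 and 9.39. GPI, which makes fructose 6-phosphate, was at 64.8 and 47.6 FPKM, the lowest change of the enzymes as measured at −0.44 (−0.82 after GC correction). The phosphofructokinase genes, which set the pace of the path, were not called: PFKL was at 30.0 and 29.5 FPKM (−0.02, but −0.92 after GC correction, then the lowest of the enzymes), PFKM at 17.1 and 14.1, and PFKP at 35.9 and 48.1. ALDOA, the main aldolase, was higher at 557 and 868 FPKM, a log2 change of 0.64 (0.18 after GC correction), and ALDOC was at 30.7 and 27.2.

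From the triose phosphates to lactate the changes were again of both signs. The largest change among the enzymes as measured, 0.67, was that of TPI1, which interconverts the triose phosphates, at 323 FPKM with DMSO and 515 when treated, and it was 0.04 after GC correction. ENO1, the main enolase, was at 376 and 555 FPKM, a change of 0.56 that became 0.20, then the highest of the enzymes, and the neuronal form ENO2 at 8.69 and 12.9. PGAM1, a phosphoglycerate mutase, was at 115 and 143 FPKM, though its near-identical copy PGAM4 (32.3 and 37.4) can share its reads. PGK1, the first step to yield ATP, was at 82.9 and 71.7 FPKM. Of the lactate dehydrogenase genes, LDHA was at 274 and 283 FPKM (0.04) and LDHB at 757 and 572 (−0.40).

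Of the 16 enzymes 9 had a change above 0 and 7 below, beside 7594 and 5964 of all 13558 measured genes. The enzymes' changes had a range of −0.44 to 0.67 and a median of 0.12, close to the 0.13 of all genes. After GC correction the median was −0.17 and after a correction for transcript length it was −0.0046. HK1, PFKP, PGAM1 and GAPDH turned below 0 with the GC correction. No enzyme was called under any of 9 alternative settings. ALDOA, TPI1, ENO1 and ENO2 stayed above 0 in all of them, and HK2, GPI, PFKM, ALDOC, PGK1 and LDHB below 0, whereas PFKL, LDHA and GAPDH changed sign with the length correction, and LDHA also with TPM scaling and with centring on the median. GAPDH, LDHA, PGK1, ALDOA and other enzymes have processed pseudogenes, to which some of their reads can be assigned.

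The differences were wider among the transporters than among the enzymes. SLC16A3 encodes MCT4, the lactate exporter of glycolytic and hypoxic cells. It was at 15.1 FPKM with DMSO and 71.4 when treated, a 4.73-fold difference and a log2 change of 2.17 (1.32 after GC correction). SLC16A1 encodes MCT1, which carries lactate both ways, and was at 93.4 and 69.9 FPKM. The share of SLC16A3 in the sum of both went from 13.9% to 50.5%, so that both were close to equal in the treated library. A common scaling of a library leaves such a share as it is, but the GC trend differs between genes, and after GC correction the treated share was 33.4%.

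For glucose uptake, SLC2A1, the GLUT1 transporter of most cells, was at 71.3 FPKM with DMSO and 91.6 when treated, a change of 0.36 that turned to −0.13 with the GC correction. SLC2A3, the high-affinity transporter GLUT3, was at 1.06 and 6.52 FPKM, a 6.15-fold difference and a log2 change of 1.87 (1.91 after GC correction). It remained the minor form, at 1.47% of the sum of both with DMSO and 6.64% when treated (9.44% after GC correction). Both transporter genes called higher are known HIF targets too, in contrast to the direction of most HIF targets outside glycolysis among the members. SLC2A3 lost the call with a pseudocount of 5, at 1 of 7 transporters and regulators called higher in place of 2.

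Regulators of flux were not called. PDK1, the kinase that inhibits pyruvate dehydrogenase in mitochondria, was at 7.91 FPKM with DMSO and 4.32 when treated, a change of −0.75. PFKFB3, which makes the activator of phosphofructokinase, was at 6.41 and 6.47 FPKM. Its hypoxia-inducible relative PFKFB4 was at 0.942 and 2.48, a change of 0.84, and its share of the pair went from 12.8% to 27.7% (23.9% after GC correction). PDK1 thus stood on the lower side and PFKFB4 on the higher, although both are textbook HIF targets.

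**Figure D2:**
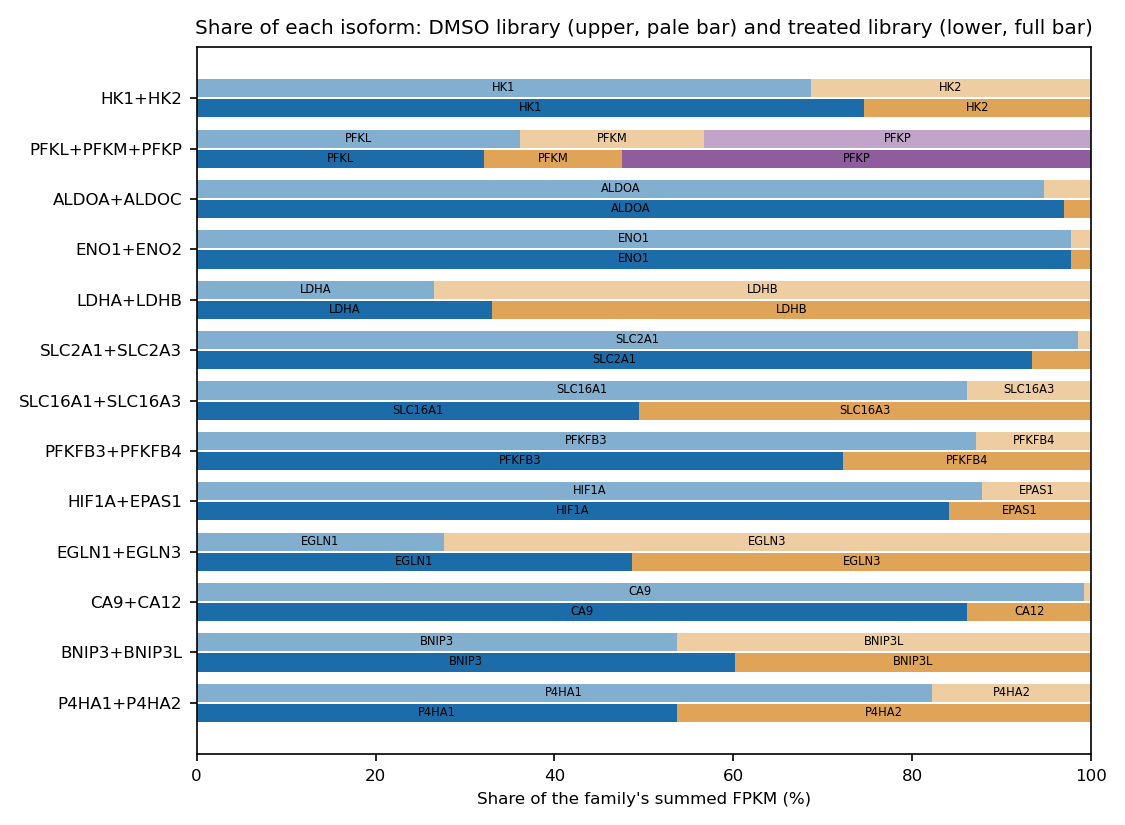
Share of each member of a gene family in the summed FPKM of that family (%), in the DMSO library (upper, pale bar) and the treated library (lower, full bar). The widest shifts, as measured, are SLC16A3 from 13.9% to 50.5%, P4HA2 from 17.8% to 46.3% and EGLN3 from 72.4% to 51.3%. ENO1 holds at 97.7% of ENO1 and ENO2, a pair that leaves out ENO3.

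As measured, isoform shares of the enzymes shifted by less than 10 percentage points in every family. HK1 went from 68.6% to 74.7% of the hexokinase sum, PFKP from 43.3% to 52.4% of the phosphofructokinases (53.3% after GC correction), and LDHA from 26.6% to 33.1% of the lactate dehydrogenases. LDHB, the form richest in oxidative tissue, stayed the more abundant of its pair. ENO1 was at 97.7% of the sum of ENO1 and ENO2 in both libraries. That sum leaves out the enolase ENO3, not a member, which was at 1.95 FPKM with DMSO and 17.0 when treated.

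Messenger RNA of the alpha subunits was not called in either direction, as measured or after GC correction. HIF1A, the subunit of the acute response, was at 64.2 FPKM with DMSO and 62.0 when treated, a change of −0.05 that became 0.48 after GC correction, its transcript having a GC content of 36.4%. EPAS1, which encodes HIF-2 alpha, was at 8.88 and 11.7 FPKM (0.36, or 0.01 after GC correction). HIF protein was not measured.

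The measured HIF targets outside glycolysis among the members were mostly lower. This does not extend to 29 further measured HIF targets described below, of which 14 had a change above 0 and 15 below. NDRG1, a stress-induced gene of growth arrest and a common marker of hypoxia, was at 125 FPKM with DMSO and 30.4 when treated, 4.12-fold lower, the largest difference of the list (log2 change −2.01). DDIT4, also named REDD1, which restrains mTORC1 and is a target of ATF4 and p53 as well as HIF, was at 87.7 and 25.1 FPKM, 3.49-fold lower (−1.76). These were the 2 most abundant targets in the DMSO library, and both differences widened with the GC correction, to −2.33 and −2.43.

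EGLN3, the prolyl hydroxylase that HIF induces most strongly, was at 19.5 FPKM with DMSO and 6.57 when treated, 2.97-fold lower (−1.44). The main oxygen sensor EGLN1 was at 7.45 and 6.25 FPKM. The share of EGLN3 in their sum went from 72.4% to 51.3%, so the forms were nearly level in the treated library (45.7% after GC correction). EGLN2, a relative that is not a HIF target, went the other way, at 5.65 and 14.2 FPKM (1.19, or 0.64 after GC correction).

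Of the mitophagy receptors 1 was called lower as measured and the other after GC correction. BNIP3L was at 28.0 FPKM with DMSO and 11.7 when treated, 2.39-fold lower (−1.19), and BNIP3 at 32.4 and 17.7 (−0.84). Their order changed with the GC correction: the BNIP3L transcript has a GC content of 38.9% and lost its call after GC correction (−0.77), whereas BNIP3, at 51.4%, gained one (−1.12). BNIP3L also lost it with a pseudocount of 5.

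VEGFA, the growth factor of blood vessels, lay at the edge of the call, at 55.4 FPKM with DMSO and 27.3 when treated. That is 2.03-fold lower on the FPKM themselves and −0.99 on the scale used here, and −1.48 after GC correction. ADM, the vasodilator adrenomedullin, was at 41.0 and 29.3 FPKM (−0.47), and passed the call after GC correction (−1.15). Both secreted vascular factors were thus on the lower side.

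Of the carbonic anhydrases that HIF uses to control pH, CA9, the standard tissue marker of hypoxia, was at only 2.07 FPKM with DMSO and 0.793 when treated (−0.78, or −1.52 after GC correction). CA12 was at 0.0159 and 0.127 FPKM, under the limit for a measured gene in both. Neither gene therefore gives more than a low level to compare.

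Of the collagen prolyl hydroxylases P4HA2 was called higher and P4HA1 was not called. P4HA1 was at 28.5 FPKM with DMSO and 17.9 when treated (−0.65, or −0.33 after GC correction). P4HA2 was at 6.19 and 15.4 FPKM, 2.49-fold higher (1.19, or 1.05 after GC correction), and its share of the pair went from 17.8% to 46.3% (38.1% after GC correction). The sum of both was nearly the same, 34.7 and 33.3 FPKM. The 1 other target on the higher side was ANKRD37, an ankyrin repeat protein with a strong HIF response, at 1.39 and 3.25 FPKM (0.83), called after GC correction (1.07). It is read from low levels.

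**Figure D3:**
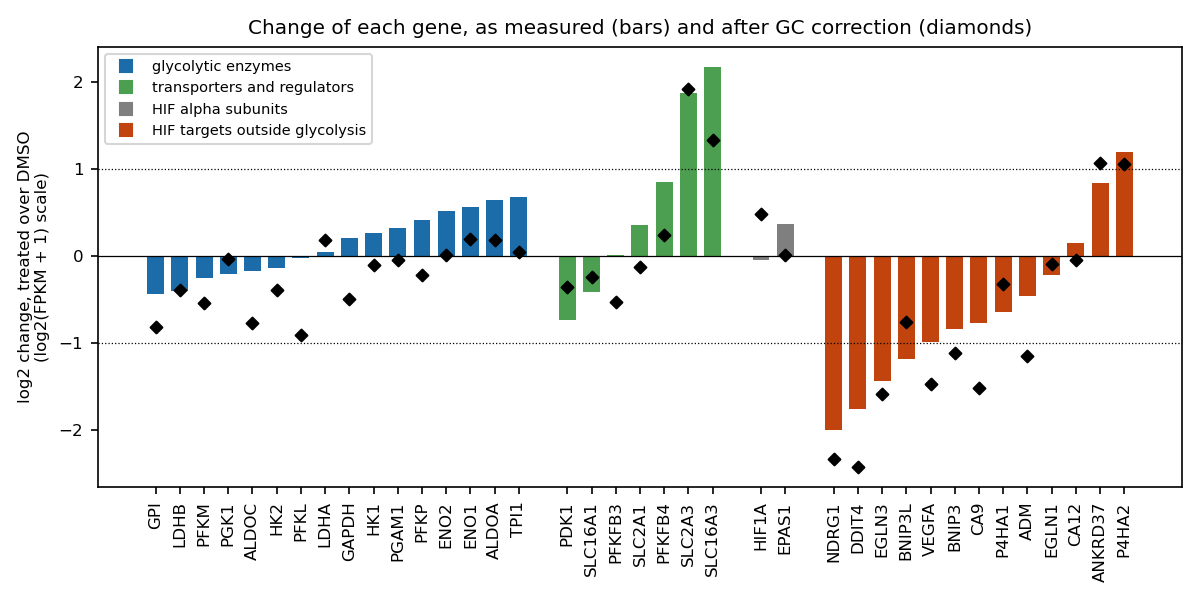
Log2 change of each member, treated over DMSO, on the log2(FPKM + 1) scale, as bars by role, with black diamonds for the value after GC correction and dotted lines at 2-fold. The enzymes stay within −0.44 and 0.67, whereas 9 HIF targets lie below −0.44 and P4HA2 and ANKRD37 lie above 0.67.

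Set side by side, the enzymes had a median change of 0.12 and the measured HIF targets among the members −0.81 (−0.78 with CA12 included). The difference was 0.93 on the log2 scale, and the median of all genes was 0.13. The 29 further measured HIF targets described below had a median of −0.03. Of the 12 targets 9 lay below the lowest enzyme, 2 above the highest and 1, EGLN1, within the enzymes' range. After GC correction 7 lay below, 2 above and 3 within that range, which then reached from −0.92 for PFKL to 0.20 for ENO1. CA9, measured through the DMSO library only, is among those below in both counts and enters the targets' median. Of the targets 4 of 12 were called lower (33.3%) and 1 higher (8.33%), beside 5.21% and 16.1% of all genes, and of the enzymes none. The summed FPKM of the 13 targets was 435 with DMSO and 192 when treated, 2.27-fold lower. Most of that difference came from NDRG1 (125 and 30.4 FPKM) and DDIT4 (87.7 and 25.1 FPKM). With 1 library per group this describes these 2 cultures. Fewer cells of a kind and less RNA per cell cannot be told apart in such bulk RNA.

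The lists were close in base composition, with a median GC content of the transcripts of 53.0% for the enzymes and 50.4% for the measured targets. Of the 12 measured targets 7 were called lower and 2 higher after GC correction, beside 4.34% and 7.53% of all genes. The difference of the medians was then 0.96. It stayed above 0 in all 12 alternatives, between 0.59 and 1.06. Its lowest value came when the transporters and regulators were counted with the HIF targets, which they partly are.

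**Figure D4:**
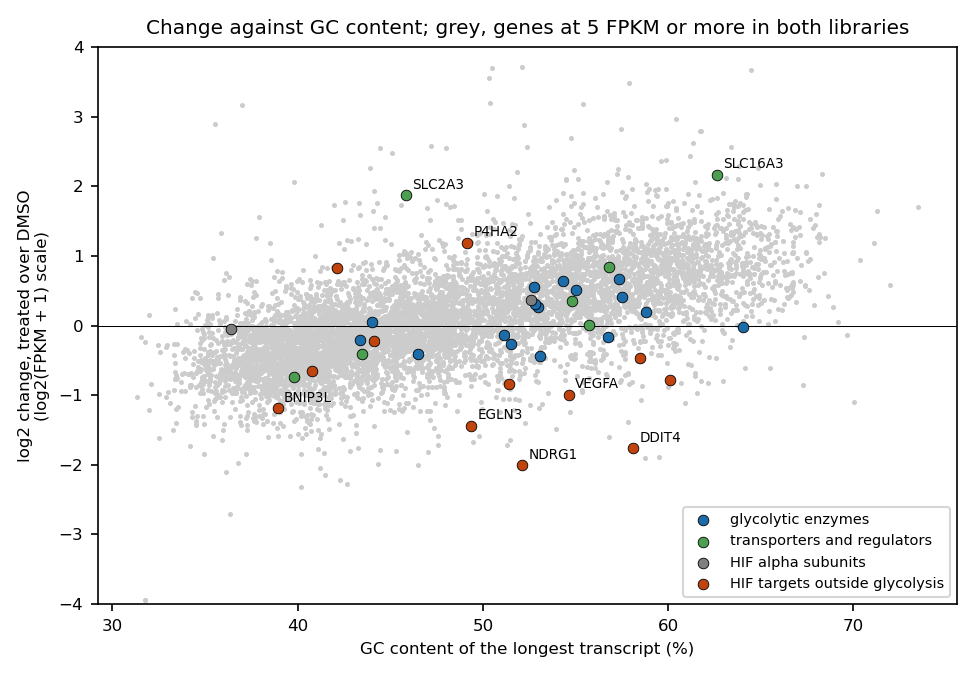
Log2 change, treated over DMSO (log2(FPKM + 1) scale), against the GC content of the longest transcript (%), for the 37 measured members by role and, in grey, 7129 genes with 5 FPKM or more in each library, 2 of them outside the axis. NDRG1, DDIT4, EGLN3 and BNIP3L lie below the GC trend, at −2.33, −2.43, −1.59 and −0.77 after GC correction. SLC2A3 and P4HA2 lie above the trend, at 1.91 and 1.05. With 1.06 FPKM in the DMSO library SLC2A3 is under the limit for a grey point.

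The rest of both pathways gives the context, from lists written from general knowledge. In other genes of glycolysis 2 of 10 measured were called higher (20%, beside 16.1% of all genes) and none lower (5.21% of all genes), with a median of 0.40 (0.13 after GC correction). PKM, pyruvate kinase, the last step before pyruvate, was at 406 FPKM with DMSO and 643 when treated (0.66, or 0.26 after GC correction). The muscle enolase ENO3 was at 1.95 and 17.0 FPKM (2.61), TIGAR, a phosphatase that lowers fructose 2,6-bisphosphate, at 3.75 and 8.88 (1.06), and PFKFB2 at 5.29 and 9.37 (0.72). ENO3 is thus the gene of this list with the widest difference. In the treated library its level was above that of ENO2 (12.9 FPKM), while with DMSO it was below (8.69 FPKM).

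Of 15 measured genes for pyruvate entry and gluconeogenesis, FBP2 alone was called higher (6.67%, beside 16.1% of all genes) and none lower (median −0.26). Close to the call on the lower side were PCK2, mitochondrial PEP carboxykinase, at 40.9 and 20.4 FPKM (−0.97, or −1.77 after GC correction), and DLD (46.3 and 23.6) and PDHX (19.9 and 10.1), parts of the pyruvate dehydrogenase complex. FBP2, a muscle fructose bisphosphatase, was at 0.758 and 3.84 FPKM, and so counted as measured through the treated library only. In the pentose phosphate pathway 1 of 9 was called higher (11.1%) and none lower. The gene was TKTL1, a transketolase-like gene listed at 0 with DMSO and at 26.8 FPKM when treated, which also passed through that library only. TKT, the main transketolase, was at 166 and 116 FPKM (−0.52), PGD at 61.3 and 38.7 (−0.65) and RPE at 28.9 and 20.0 (−0.51, near 0 after GC correction). The list's median was −0.38, and 4 of its 9 genes were called lower after GC correction, beside 4.34% of all genes.

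Among 5 other measured sugar and lactate transporters, SLC2A6 was called higher at 0.580 and 4.17 FPKM and SLC2A13 lower at 2.88 and 0.692, and neither after GC correction. With so few genes these shares (20% each way, beside 16.1% and 5.21% of all genes) rest on single members, and both passed through the library where they are high. SLC2A8 was at 1.44 and 3.87 FPKM and SLC16A8, measured through the treated library only, at 0.317 and 1.27. Of 16 measured regulators of HIF only EGLN2 was called, as higher (6.25%, beside 16.1% of all genes), and none after GC correction. ARNT, the beta subunit, was at 11.2 and 13.1 FPKM, VHL, which binds hydroxylated HIF alpha, at 17.6 and 14.2, and HIF1AN, the asparagine hydroxylase of HIF, at 9.33 and 9.83. The coactivators EP300 (34.0 and 52.9 FPKM) and CREBBP (14.6 and 24.8) and the VHL partner ELOB (101 and 186) were not called. Their changes of 0.62, 0.73 and 0.87 became 0.30, 0.18 and 0.09 after GC correction.

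Further HIF targets outside glycolysis lay on both sides. In a list of 35 such genes, 5 of 29 measured were called higher (17.2%) and 5 lower (17.2%), with a median of −0.03, beside 16.1% and 5.21% of all genes. IGFBP3, a binding protein of insulin-like growth factors, was at 117 FPKM with DMSO and 36.1 when treated (−1.67), and VLDLR, a lipoprotein receptor, at 5.78 and 1.301 (−1.56). STC1, the hormone stanniocalcin, was higher at 2.17 and 10.7 FPKM (1.89). The counts of this list were 2 higher and 3 lower of 29 after GC correction, beside 7.53% and 4.34% of all genes.

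**Figure D5:**
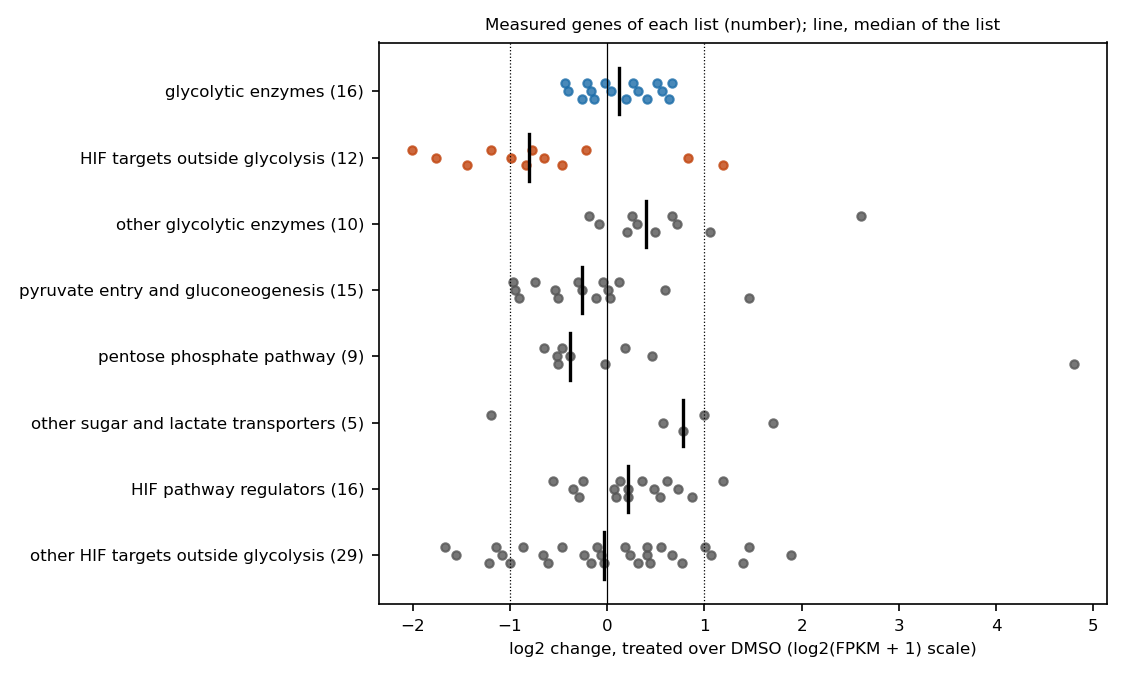
Log2 change, treated over DMSO (log2(FPKM + 1) scale), of each measured gene by list, with the number measured in brackets, a black line at the list's median and dotted lines at 2-fold. The HIF targets among the members centre on −0.81, while the further HIF targets spread to both sides of a median of −0.03.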

How the data were processed

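Stranded libraries of polyadenylated RNA were sequenced, 1 for each of 4 groups, which follow the source names. The authors deposited FPKM per gene symbol and library, per the file headers, and the submitters' processing notes name TopHat 1.3.2, Cufflinks 2.0.2 and the build hg19. Annotation, filters and scaling: not given in the sources used here. For this report 45 repeated rows were summed to 25548 symbols, with a pseudocount of 1 FPKM, a minimum of 1 FPKM in either library and a 2-fold call, with no test. GC content and length are those of the longest GENCODE release 29 transcript per gene (all 38 members and 92.4% of measured genes had one). Trends were fitted by lowess (fraction 0.3, statsmodels 0.14.6) over genes with 5 FPKM or more in each library, and checked on simulated data. Of 151 listed genes all were in the table, 9 under an older symbol. Other genes named are up to 4 per list with the widest change, and PKM, ARNT, VHL, EGLN2 and HIF1AN; a gene this rule names is not reported here. PGAM4 was named after its values were seen. Members and lists were chosen with earlier results of these data known.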

Additional observations from a re-analysis of the deposited data

How the results depend on the processing

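No paired analysis was possible because each group has 1 library. Each setting was run for the counts, medians and changes, except that FBP2, SLC2A6, SLC2A8, SLC2A13 and SLC16A8 have no value with a filter at 5 FPKM. Shares within families were run with the highest row per symbol, which left them as they were, and with GC correction, an alternative chosen after seeing the data, as was the count of targets against the enzymes' range after GC correction. Among all genes the count called higher was 893 with a pseudocount of 5 and 944 with GC correction (2178 as reported), and the count called lower 1182 with a pseudocount of 0.1, 253 with 5, and 1152 with TPM scaling (706 as reported). The median of the enzymes was −0.1686 with GC correction and −0.0046 with length correction, that of the transporters and regulators −0.1342 with GC correction, with 1 of them called higher at a pseudocount of 5. Of the HIF targets among the members, 2 were called higher with GC correction, 2 with a pseudocount of 0.1 and 0 with 5, and 7 were called lower with GC correction, at a median of −1.1313. Of the further HIF targets, 2 were called higher and 2 lower with a pseudocount of 5, 2 and 3 after the GC trend was removed, and 3 higher with length correction, and their median was 0.0744 without a filter and 0.0740 with length correction. The difference between the enzymes and the HIF targets was 0.5892 with the transporters and regulators among the targets. NDRG1, DDIT4, EGLN3 and SLC16A3 kept their calls in all 9 settings. FPKM give no read counts, so the error of a value at low levels, as for CA9, CA12, PFKFB4 and ANKRD37, is unknown.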
